A study of Mus musculus with 8 samples.

Results

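Amino acid transporters are membrane proteins of several solute carrier (SLC) families that move amino acids into, out of and between the compartments of a cell. The genes described here belong to the 7 families SLC1, SLC3, SLC6, SLC7, SLC36, SLC38 and SLC43, and were chosen by symbol alone, as mouse genes named Slc1a, Slc3a, Slc6a, Slc7a, Slc36a, Slc38a or Slc43a followed by a number. The array carried 60 of them among 19938 genes with a probe set of their own. The symbol rule takes in members of SLC6 that carry noradrenaline, dopamine, serotonin, taurine or creatine, and it leaves out Slc6a20a and Slc6a20b, whose symbols end in a letter.

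RNA came from uterine tissue of young virgin C57BL/6 mice, an inbred strain, split at random and taken on day 3 at 22 h, counting the mating night as day 0, shortly before embryos attach. For pregnancy, 4 females had mated with stud males; a blue dye showed no attachment, and flushing yielded blastocysts that looked healthy. For pseudopregnancy, 4 females had mated with vasectomized males, and flushing is described for the pregnant group alone. The labels name no genotype or other treatment, and state that the samples with the best RNA quality were picked for the arrays. Each sample is called a biological replicate, so the p-values measure the spread between such uteri. The males differed between the groups, and their effect cannot be told apart from that of the embryos. Uterine tissue mixes epithelium, glands, stroma, muscle, vessels and leukocytes, so fewer cells of a type and less RNA per cell cannot be told apart.

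In the uterus, amino acid transporters feed growing epithelium and stroma and set the amino acids of the fluid in which the blastocyst lies before it attaches. Many SLC7 proteins are light chains that reach the membrane only when bound to an SLC3 heavy chain, SLC1 and SLC38 proteins carry small neutral or acidic amino acids together with sodium, and SLC36 and SLC38 proteins of the lysosome report stored amino acids to the growth regulator mTORC1. When amino acids run short, the transcription factor ATF4 raises the transcription of several of these genes through a short DNA motif, the C/EBP-ATF response element.

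Of the 60 genes, 34 were measured, meaning that at least 4 of the 8 arrays lay above the 40th percentile of all gene probe sets on their own array, a line between 5.23 and 5.32 on the log2 scale. The measured members were 4 of 7 in SLC1, 1 of 2 in SLC3, 7 of 18 in SLC6, 8 of 15 in SLC7, 2 of 4 in SLC36, 9 of 11 in SLC38 and 3 of 3 in SLC43. In all, 56.7% of the members were measured, against 65.4% of all named genes. The intensity of a probe set cannot be set against that of another, so the members are not ranked by level.

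**Figure D1:**
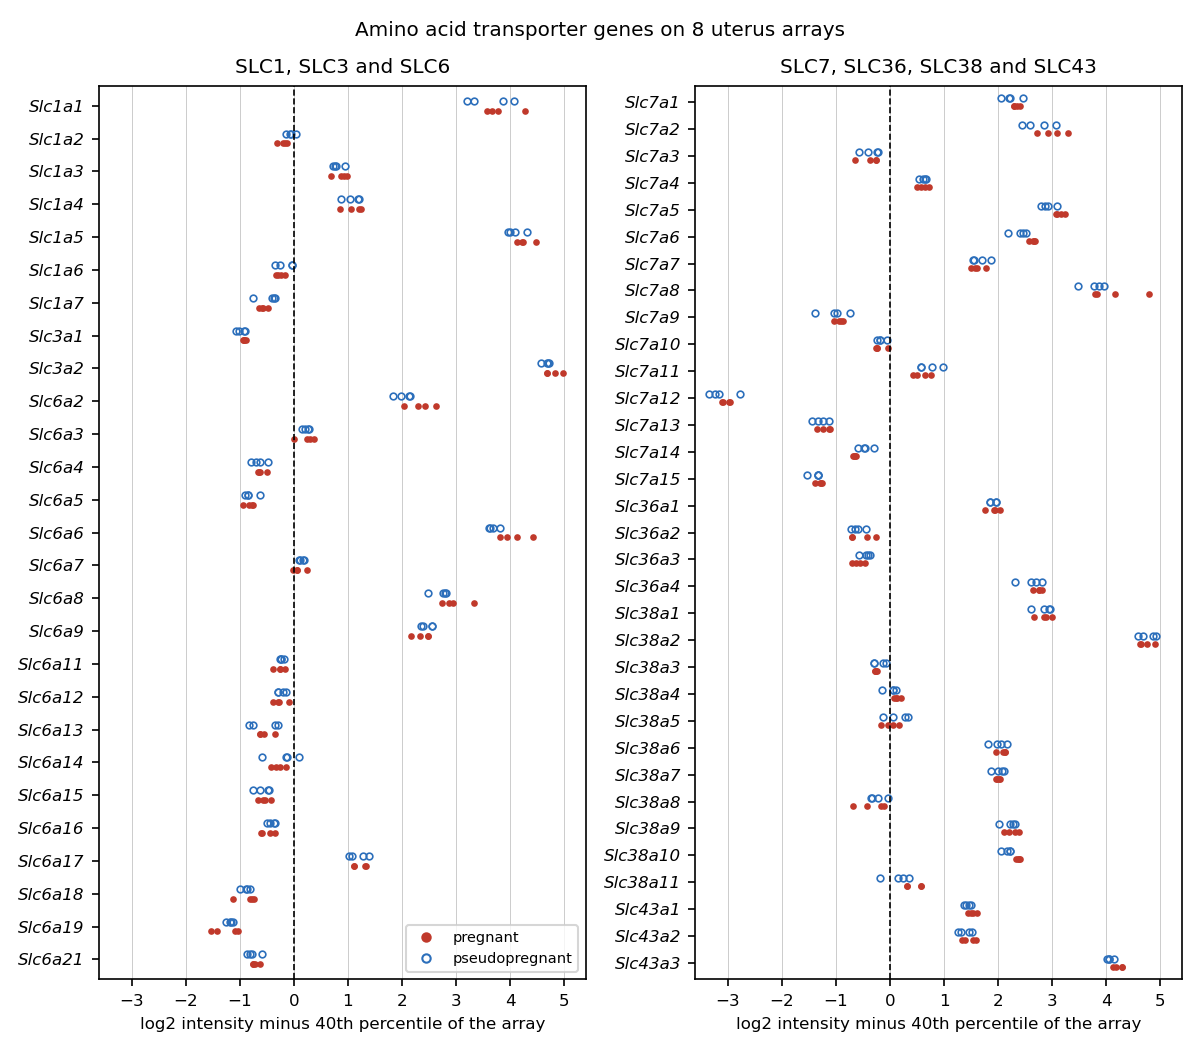
Log2 intensity of each of the 60 members on each of the 8 arrays, minus the 40th percentile of that array (dashed line at 0), with filled points for the 4 pregnant and open points for the 4 pseudopregnant uteri. The 34 measured members lie mostly to the right of the line, and the points of both groups overlap for nearly all of them; horizontal positions of different genes cannot be compared as amounts of RNA.

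The 26 members that were not measured had log2 intensities between 1.95 and 5.43, and 24 of them lay below the line on all 8 arrays. Among them were Slc3a1 and Slc7a9, the heavy and light chain of the cystine transporter of kidney and intestine, the serotonin transporter Slc6a4 and the renal neutral amino acid transporter Slc6a19. The glial glutamate transporter Slc1a2 and the broad-range transporter Slc6a14 each lay above the line on 1 pseudopregnant array. Slc6a14 had values of 4.82 to 5.09 in the pregnant and 4.70 to 5.43 in the pseudopregnant uteri. Also under the line on all arrays were Slc38a3, a glutamine transporter of liver, and Slc7a10, a light chain for small neutral amino acids. Slc7a3, a cationic transporter of neurons, was under it as well. The members just inside the line were Slc38a5, above it on 5 arrays, and Slc6a3, Slc6a7, Slc38a4 and Slc38a11, each above it on 7. Those just outside were Slc1a2 and Slc6a14 with 1 array above it. Slc7a14, also under the line on all arrays, had pregnant values below all pseudopregnant ones. Genes that were not measured were not tested, and a low intensity does not show that a gene is absent.

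The design addresses what differs in a uterus that holds blastocysts about to attach. No transporter gene passed the test: 0 of the 34 measured members rose and 0 fell (limma, Benjamini-Hochberg adjusted p under 0.05 over 17494 probe sets), where 1.82% of all probe sets passed, 1.41% as higher and 0.412% as lower in the pregnant group. The smallest adjusted p among the members was 0.0861, for Slc38a10. Before adjustment, 6 of the 34 members had a limma p under 0.05 as higher and 0 as lower, against 14.3% higher and 9.43% lower among all probe sets. The log2 differences, pregnant minus pseudopregnant throughout, ran from -0.18 to 0.36 with a median of 0.04, against a median of 0.0019 over all probe sets tested, and 21 of 34 were above 0, against 50.6% of all probe sets. Groups did not overlap for 2 members, both with higher pregnant values, while 9.23% of all probe sets did not overlap in that direction and 5.38% in the other.

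The 95% limma intervals of all 34 members lay between 0.748-fold and 1.71-fold, and for 31 of them within 1.5-fold in either direction. The other intervals were those of Slc7a8, Slc1a1 and Slc6a6, with upper bounds of 1.71-fold, 1.56-fold and 1.53-fold. These intervals are not adjusted for the number of genes, and a p above the threshold does not show that a gene was equal in both groups.

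**Figure D2:**
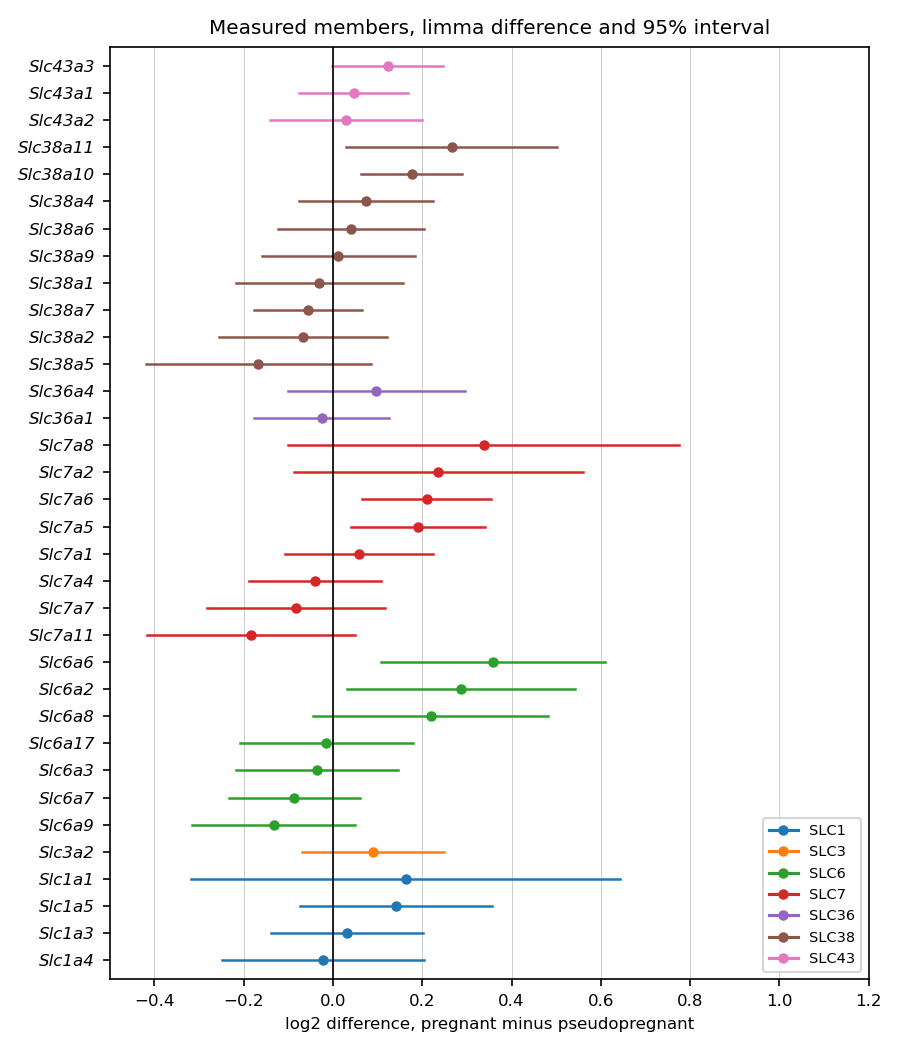
Log2 difference, pregnant minus pseudopregnant, of the 34 measured members with 95% limma intervals (bars), grouped and coloured by family. The intervals of 6 members, Slc38a10, Slc7a6, Slc6a6, Slc7a5, Slc6a2 and Slc38a11, exclude 0, all on the higher side, and no member passed after adjustment.

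Heavy and light chains come first. Slc3a2 encodes the heavy chain CD98, which carries light chains of SLC7 to the cell surface. Its log2 intensities were 9.94, 10.22, 10.09 and 9.93 in the pregnant and 9.89, 9.96, 9.99 and 9.96 in the pseudopregnant uteri. Pregnant replicate 2 was the highest array and the other values of the groups overlapped, with a difference of 0.09 ± 0.071 (SE, limma adjusted p = 0.47; 95% interval -0.07 to 0.25). Without pregnant replicate 2 the difference was 0.03. Its partner Slc7a5, the light chain LAT1 that imports leucine and other large neutral amino acids, had 8.35, 8.39, 8.49 and 8.31 in the pregnant and 8.24, 8.32, 8.06 and 8.15 in the pseudopregnant uteri. The groups met only where pregnant replicate 4 (8.31) lay just under pseudopregnant replicate 2 (8.32), and the difference was 0.19 ± 0.068 (SE, adjusted p = 0.13).

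Slc7a6, the light chain y+LAT2 that exchanges arginine for neutral amino acids, had 7.83, 7.92, 7.88 and 7.90 in the pregnant and 7.51, 7.69, 7.69 and 7.80 in the pseudopregnant uteri. All pregnant values lay above all pseudopregnant ones, the nearest arrays being pregnant replicate 1 (7.83) and pseudopregnant replicate 4 (7.80). The difference was 0.21 ± 0.065 (SE, adjusted p = 0.10), or 1.16-fold; on the log2 scale the 95% interval ran from 0.065 to 0.35. Slc7a8, the light chain LAT2, had 9.04, 10.03, 9.40 and 9.07 in the pregnant and 8.79, 9.10, 9.06 and 9.24 in the pseudopregnant uteri. Pregnant replicate 2 stood highest and pregnant replicates 1 and 4 lay among the pseudopregnant arrays. Its difference of 0.34 ± 0.20 (SE, adjusted p = 0.32) became 0.12 without pregnant replicate 2.

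Slc7a7, the light chain y+LAT1 of macrophages and absorptive epithelia, had 6.76, 6.79, 6.86 and 7.03 against 6.87, 6.77, 6.98 and 7.15. The groups overlapped, and the difference was -0.08 ± 0.089 (SE, adjusted p = 0.59). Slc7a11, the light chain xCT that takes up cystine for the antioxidant glutathione, had 6.01, 5.73, 5.90 and 5.66 in the pregnant and 5.90, 6.02, 5.85 and 6.28 in the pseudopregnant uteri. It had the lowest difference of the members, -0.18 ± 0.10 (SE, adjusted p = 0.31; 95% interval -0.42 to 0.05), with pseudopregnant replicate 4 as its highest array. Without that array the difference was -0.096.

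The ATF4 motif was looked for in the promoters of the members, since Slc7a11 is a known target of that factor. RefSeq promoter windows of the GRCm38.p6 build, 250 bases before to 50 after the start site, were found for 43 of the 60 members and 24 of the 34 measured ones. The letters TGATGNAA, read on both strands, stood in the windows of 4 of the 43 members, namely Slc7a11, Slc7a7, Slc1a4 and Slc6a21, and in 3.97% of all 32851 windows. The E-box CACGTG, bound by MYC among other factors, stood in the windows of 9 of 43 members and in 7.15% of all windows. The antioxidant response element core TGACNNNGC, the binding site of NRF2, stood in those of 9 of 43 and in 12.4% of all, and the full estrogen response element palindrome in those of 0 of 43 and in 0.07% of all. Members are counted as genes with a match in any of their windows, while the percentages are of single windows. A gene with several windows has more chances of a match, so these counts and percentages cannot be compared directly. The motifs can overlap each other. A match is a run of letters, not a shown binding site, and several starts of a gene share bases. The stretches below lie before the most upstream start, 5′ to 3′ on the strand of the gene, with the match in capitals: Slc7a11 for its pair of ATF4 motifs facing each other (bases -100 to -1, chr3:50443614-50443713, minus strand), Slc7a7 as the other light chain with the motif (60 bases from base -160, chr14:54418045-54418104, minus strand; a second match at its start is not shown), and Slc38a2 for an antioxidant core beside its start (bases -60 to -1, chr15:96699729-96699788, minus strand).
Slc7a11: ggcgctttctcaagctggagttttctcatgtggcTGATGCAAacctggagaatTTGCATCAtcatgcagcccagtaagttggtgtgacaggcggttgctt
Slc7a7: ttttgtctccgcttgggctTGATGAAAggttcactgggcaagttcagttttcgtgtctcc
Slc38a2: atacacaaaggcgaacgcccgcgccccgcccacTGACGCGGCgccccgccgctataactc
Among the 24 measured members with a window, the 3 with the ATF4 motif in it were Slc7a11, Slc7a7 and Slc1a4. Their differences were -0.18, -0.08 and -0.02, and none of them passed the test. Slc1a5, Slc6a2, Slc6a6, Slc6a7, Slc6a8, Slc7a2, Slc7a4, Slc7a5, Slc38a1 and Slc43a3 had no window and could not be scored. Motifs outside the windows were not looked for.

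The cationic transporters of SLC7 work without a heavy chain. Slc7a1, which supplies most cells with arginine and lysine, had 7.55, 7.57, 7.64 and 7.55 against 7.54, 7.71, 7.48 and 7.35, a difference of 0.06 ± 0.074 (SE, adjusted p = 0.65). That difference was 0.0015 without pseudopregnant replicate 4, its lowest array, 0.12 without pseudopregnant replicate 2, its highest, and 0.038 without pregnant replicate 3. Slc7a2, its relative that supplies arginine for nitric oxide and polyamines, had 8.34, 7.95, 8.18 and 8.54 in the pregnant and 7.76, 8.08, 7.88 and 8.35 in the pseudopregnant uteri. Pregnant replicate 4 and pseudopregnant replicate 4 were the highest arrays, the groups overlapped, and the difference was 0.24 ± 0.15 (SE, adjusted p = 0.35). It was 0.14 without pregnant replicate 4 and 0.15 without pseudopregnant replicate 1. Slc7a4, whose substrate is not settled, differed by -0.04 (adjusted p = 0.73).

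The sodium-coupled carriers of SLC38 include the best known glutamine transporters. Slc38a2, which is induced when amino acids are short, had 9.88, 9.86, 10.16 and 10.01 in the pregnant and 9.99, 10.16, 10.14 and 9.88 in the pseudopregnant uteri. The groups covered nearly the same range, and the difference was -0.07 ± 0.085 (SE, adjusted p = 0.65). Slc38a1 differed by -0.03 ± 0.084 (SE, adjusted p = 0.84), and its dimmer probe set by 0.16 ± 0.19. Slc38a4, known from liver and placenta, differed by 0.07 (adjusted p = 0.53) and Slc38a5 by -0.17 (adjusted p = 0.39), each with values on both sides of the line. Slc38a6 differed by 0.04 (adjusted p = 0.76).

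Slc38a10, a poorly described relative, had the smallest p of all members. Its values were 7.64, 7.63, 7.62 and 7.58 in the pregnant and 7.37, 7.40, 7.49 and 7.50 in the pseudopregnant uteri. The groups did not overlap and the pregnant values lay close together, with 7.62 ± 0.026 against 7.44 ± 0.064 (SD, n = 4 each). The difference was 0.18 ± 0.051 (SE, limma adjusted p = 0.0861), or 1.13-fold with a 95% interval of 1.04 to 1.22. Over 19 alternatives its adjusted p lay between 0.063 and 0.19 and its difference between 0.14 and 0.20. Slc38a11, another relative of unsettled function, had 5.82, 5.54, 5.56 and 5.82 against 5.14, 5.59, 5.42 and 5.53, a difference of 0.27 ± 0.11 (SE, adjusted p = 0.17). Pseudopregnant replicate 1 lay below the line, so the size of that difference is not exact.

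The lysosomal members relay amino acids to mTORC1 or release glutamine and small amino acids from the lysosome. Slc38a9, the arginine sensor, had 7.36, 7.62, 7.45 and 7.56 against 7.34, 7.45, 7.55 and 7.60. The groups covered the same range, with a difference of 0.01 ± 0.077 (SE, adjusted p = 0.94); its dimmer probe set differed by -0.13 ± 0.069 (SE, adjusted p = 0.28). Slc38a7, which exports glutamine, differed by -0.06 (adjusted p = 0.56). Slc36a1, the proton-coupled exporter of small amino acids, differed by -0.03 ± 0.068 (SE, adjusted p = 0.84) and Slc36a4 by 0.097 ± 0.089 (adjusted p = 0.53). Pseudopregnant replicate 1 was the lowest array for Slc36a4 (7.62, against 7.89 to 8.06 on all others), and without it the difference was 0.0082.

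In SLC1, Slc1a5 encodes ASCT2, a main entry route of glutamine into dividing cells. Its values were 9.47, 9.47, 9.38 and 9.73 in the pregnant and 9.32, 9.20, 9.37 and 9.60 in the pseudopregnant uteri. Replicate 4 was the highest array of each group, and the difference was 0.14 ± 0.097 (SE, adjusted p = 0.40). It was 0.070 without pregnant replicate 4, 0.083 without pseudopregnant replicate 2 and 0.22 without pseudopregnant replicate 4. Slc1a4, its relative for alanine, serine and cysteine, differed by -0.02 ± 0.10 (adjusted p = 0.91). Slc1a3, a glutamate transporter, differed by 0.03 ± 0.077 (adjusted p = 0.83).

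Slc1a1, a glutamate and cysteine transporter of epithelia and neurons, had the widest 95% interval of the members. Its values were 9.53, 8.80, 9.02 and 8.92 in the pregnant and 9.39, 8.45, 9.15 and 8.63 in the pseudopregnant uteri. Replicates 1 and 3 were the highest and replicate 2 the lowest array in each group, and the group SDs, 0.32 and 0.44, were both larger than the difference of 0.16 ± 0.22 (SE, adjusted p = 0.67). With the replicate number as a block, the difference was also 0.16 and the limma adjusted p was 0.29. Over single arrays left out, the difference ranged from 0.0083 to 0.32.

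SLC6 held the largest difference of the members. Slc6a6 encodes the taurine transporter; taurine is abundant in the female reproductive tract and serves as an osmolyte. Its values were 9.38, 9.65, 9.07 and 9.20 in the pregnant and 8.93, 8.92, 9.10 and 8.91 in the pseudopregnant uteri. Pregnant replicate 3 (9.07) lay just below pseudopregnant replicate 3 (9.10), which itself stood apart from its group, and the other pregnant arrays lay above all pseudopregnant ones. The means were 9.33 ± 0.25 against 8.97 ± 0.089 (SD, n = 4 each), a difference of 0.36 ± 0.11 (SE, adjusted p = 0.10), or 1.28-fold with a 95% interval of 1.08 to 1.53. Without pregnant replicate 2 it was 0.25 and without pregnant replicate 3 it was 0.45 (adjusted p = 0.073).

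Slc6a8, the creatine transporter, had 7.99, 8.56, 8.11 and 8.19 against 7.80, 8.01, 8.09 and 8.08. Pregnant replicate 2 was the highest array, and the difference of 0.22 ± 0.12 (SE, adjusted p = 0.29) became 0.10 without it. Slc6a2, the noradrenaline transporter of sympathetic nerves, had 7.30, 7.87, 7.68 and 7.55 in the pregnant and 7.31, 7.40, 7.41 and 7.12 in the pseudopregnant uteri. Pregnant replicate 1 lay among the pseudopregnant arrays and the other pregnant arrays above all of them, and the difference was 0.29 ± 0.11 (SE, adjusted p = 0.17). Without pregnant replicate 2 it was 0.20. Slc6a9, a glycine transporter, had 7.73, 7.40, 7.59 and 7.74 against 7.67, 7.80, 7.84 and 7.68. Its difference of -0.13 ± 0.082 (SE, adjusted p = 0.35) became -0.061 without pregnant replicate 2, its lowest array. The dopamine transporter Slc6a3 (-0.04), the proline transporter Slc6a7 (-0.087) and the vesicular carrier Slc6a17 (-0.01) had adjusted p of 0.81, 0.45 and 0.93.

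In SLC43, Slc43a1 and Slc43a2 carry large neutral amino acids without sodium, and differed by 0.05 ± 0.055 (SE, adjusted p = 0.64) and 0.03 ± 0.076 (adjusted p = 0.84). Slc43a3, which carries purine bases rather than amino acids, had 9.54, 9.53, 9.42 and 9.37 against 9.37, 9.38, 9.33 and 9.29. Pregnant replicate 4 lay just under pseudopregnant replicate 2, and the difference was 0.12 ± 0.056 (SE, adjusted p = 0.22). By family, the median differences were 0.086 in SLC1, 0.09 in SLC3 with 1 gene, -0.01 in SLC6, 0.12 in SLC7, 0.04 in SLC36, 0.01 in SLC38 and 0.05 in SLC43.

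**Figure D3:**
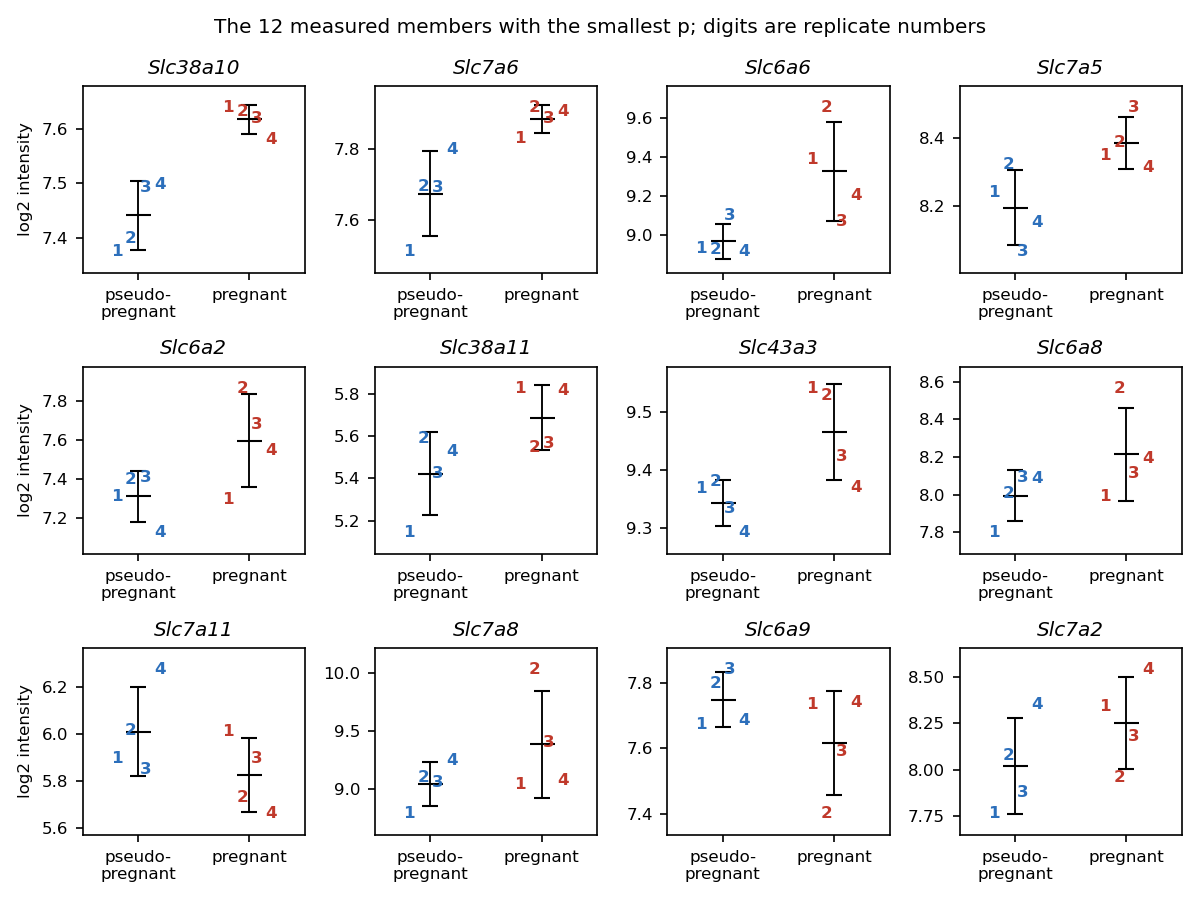
Log2 intensity in the pseudopregnant and pregnant uteri for the 12 measured members with the smallest p, in that order; each digit is the replicate number of an array, the horizontal bar is the group mean and the whiskers are ± 1 SD (n = 4). The vertical axes differ between panels. Slc38a10 and Slc7a6 have no overlap between groups, and pregnant replicate 2 is the highest array for Slc7a6, Slc6a6, Slc6a2, Slc6a8 and Slc7a8.

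Pregnant replicate 2 was the highest of the 8 arrays for 8 of 34 members and the lowest for 7 (23.5% and 20.6%), against 19.2% and 22.0% of all probe sets. Pseudopregnant replicate 1 was the lowest array for 12 members (35.3%), against 23.4% of all probe sets. Leaving out pregnant replicate 2 shrank the differences of Slc7a8, Slc6a8, Slc3a2, Slc6a9, Slc38a5, Slc6a7, Slc38a2 and Slc43a2 by more than 1.5 times. It enlarged those of Slc1a1, Slc1a3, Slc1a4, Slc36a1, Slc38a1 and Slc6a17 by more than 1.5 times, and turned the sign of Slc7a4, Slc6a3 and Slc38a9.

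**Figure D4:**
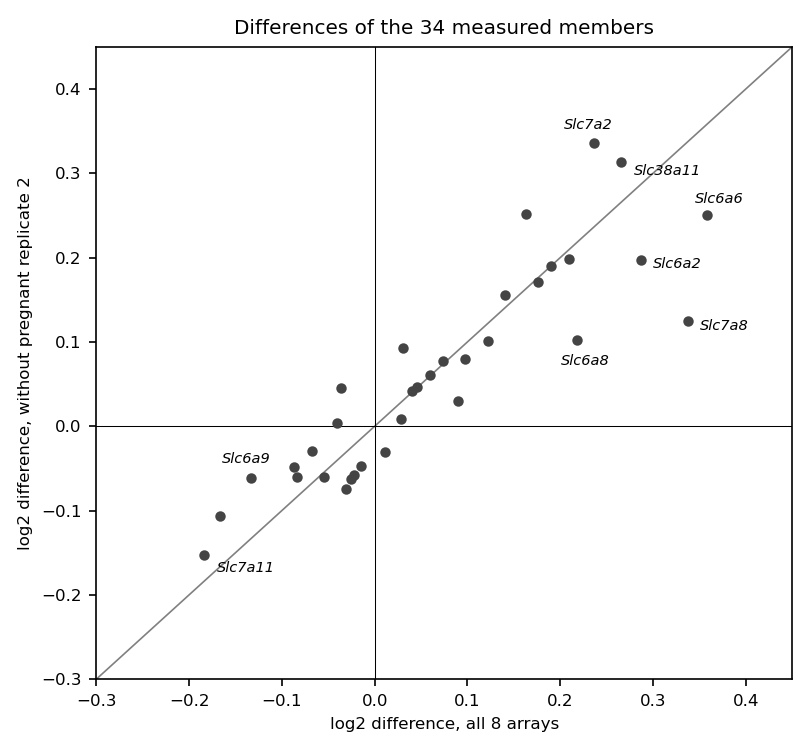
Log2 differences of the 34 measured members without pregnant replicate 2 (vertical axis) against those with all 8 arrays (horizontal axis); the diagonal marks equal values and the thin lines mark 0. Slc7a8 (0.34 and 0.12), Slc6a8 (0.22 and 0.10), Slc6a2 (0.29 and 0.20) and Slc6a6 (0.36 and 0.25) lie below the diagonal, and Slc7a2 (0.24 and 0.34) above it.

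Markers of cell types in the same uteri moved as follows. The sums given for a list add linear intensities, so its brightest probe sets weigh most in them. Over all probe sets, 1.41% passed as higher and 0.412% as lower. Before adjustment, 14.3% were higher and 9.43% lower with a limma p under 0.05. Pregnant values lay above all pseudopregnant ones for 9.23% and below them for 5.38%. Earlier results of these data were known when the marker lists were chosen, which limits a comparison with these shares. Of 12 macrophage markers, 6 rose, among them the complement gene C1qb (0.56 ± 0.068, SE, limma adjusted p = 0.012) and the integrin Itgam (0.35 ± 0.054, adjusted p = 0.024), and the summed intensity of the list was 2038 to 2527 in the pregnant and 1656 to 1814 in the pseudopregnant uteri. Of 8 measured lymphocyte and NK cell markers, 4 rose, led by the protease Gzmb (1.51) and the receptor Il2rb (1.10), with sums of 664 to 1154 against 409 to 598. In the fits without single arrays, the limma adjusted p reached 0.094 for Gzmb and Il2rb, 0.066 for Itgam and 0.045 for C1qb. Of 13 cell cycle genes, 1 passed as higher, Pcna (0.55, limma adjusted p = 0.028), with sums of 2980 to 4554 against 2304 to 2798. Its adjusted p reached 0.077 in the fits without single arrays. All 13 were above 0, with a median of 0.39, and 6 had pregnant values above all pseudopregnant ones. Before adjustment limma had 9 of them higher and 0 lower with p under 0.05. Next to Pcna by smallest p was Mcm5 (0.43). No epithelial marker passed among 11 measured (0 higher, 0 lower), with sums of 2194 to 2699 against 2574 to 3339. Before adjustment limma had 1 higher and 4 lower with p under 0.05. Of the 11, 8 were below 0, with a median of -0.12, and 2 had pregnant values under all pseudopregnant ones. Those with the smallest p were Cldn3 (-0.44) and Muc1 (-0.34). The part of these markers in the values of the members was not tested. Of 7 gland markers, 1 fell and 0 rose, and 3 were above 0; before adjustment 2 were higher and 1 lower with p under 0.05, and the sums were 882 to 3095 against 968 to 1177. The one that fell was Wfdc3 (-0.24, limma adjusted p = 0.049), whose adjusted p was 0.065 to 0.12 in the fits without single arrays. The gland protease Prss28 had the largest difference of that list, 1.78 (adjusted p = 0.14), which was 1.04 without pregnant replicate 2. All 8 endothelial markers were below 0 and 4 had pregnant values under all pseudopregnant ones, with sums of 2997 to 3289 against 3406 to 3634. In limma 0 passed, and 3 were lower with p under 0.05 before adjustment. The smallest p were those of Tie1 (-0.30) and Eng (-0.18). No marker passed among the 10 of stroma, 8 of muscle or 5 of mesothelium in limma. Before adjustment 1 was higher in stroma, 2 were lower in muscle and 0 differed in mesothelium with p under 0.05. The smallest p were those of Col6a1 (0.15) and Dcn (0.07) in stroma and of Myh11 (-0.22) and Lmod1 (-0.21) in muscle. In mesothelium they were those of Upk1b (0.28) and Lrrn4 (-0.099). The blastocyst genes Cdx2, Pou5f1 and Nanog were not measured, nor were 5 others of that list of 10. Of the 2 measured, Sall4 differed by -0.13 and Gata3 by 0.046, and neither passed. Few markers of red blood cells, adipocytes or granulocytes were measured (2, 1 and 1), and none passed. In that order they were Slc4a1 (-0.17) and Alas2 (-0.12), Plin1 (0.12), and Siglecf (-0.0033). By the mean log2 of a list, pregnant replicate 2 was the highest array for macrophage, lymphocyte, cell cycle, gland, stroma and muscle genes. It was the lowest of all arrays for genes of epithelium (7.49), endothelium (8.34) and red blood cells (5.32).

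Genes that work with the transporters were followed in 8 lists, and 8 of their 141 measured genes passed, 7 higher and 1 lower. Over all probe sets 1.82% passed, 1.41% as higher and 0.412% as lower. For the counts before adjustment in these lists, the shares over all probe sets were 14.3% higher and 9.43% lower (limma p under 0.05). Earlier results of these data were known when the lists were chosen, so the comparison with these shares is not independent. In the list of cytosolic aminoacyl-tRNA synthetases, the enzymes that load amino acids onto tRNA, 4 of 18 measured genes rose and 0 fell. Pregnant values lay above all pseudopregnant ones for 9 of 18, against 9.23% of all probe sets. Before adjustment 9 of the 18 were higher and 0 lower (limma p under 0.05). Yars, the enzyme for tyrosine, had 7.53 to 7.76 in the pregnant and 7.16 to 7.36 in the pseudopregnant uteri. The groups did not overlap, and the difference was 0.38 ± 0.072 (SE, adjusted p = 0.037). Mars1 for methionine rose by 0.30 ± 0.058 (adjusted p = 0.038), Tars for threonine by 0.28 ± 0.053 (adjusted p = 0.036) and Eprs for glutamate and proline by 0.26 ± 0.050 (adjusted p = 0.038). The median of the list was 0.16.

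Of 22 measured genes of the ATF4 response, 2 rose and 1 fell, with a median of 0.02. Before adjustment 7 of the 22 were higher and 1 lower (limma p under 0.05). Shmt2, which splits serine in the mitochondrion, had 7.46, 7.63, 7.35 and 7.47 against 7.16, 7.13, 7.01 and 7.14, and rose by 0.36 ± 0.068 (SE, adjusted p = 0.035). Psat1, an enzyme of serine synthesis, rose by 0.55 ± 0.12 (adjusted p = 0.049), while Asns, which makes asparagine, differed by 0.26 ± 0.071 (adjusted p = 0.078) and Aldh18a1, which starts proline synthesis, by 0.20 ± 0.048 (adjusted p = 0.058). Sesn2, a leucine sensor that restrains mTORC1, had 5.90, 6.02, 5.99 and 5.91 against 6.23, 6.24, 6.23 and 6.14, and fell by 0.26 ± 0.052 (SE, adjusted p = 0.040). Among the 36 measured genes of amino acid sensing by mTORC1, Sesn2 was the single one to pass, and the median was -0.0028. Before adjustment limma had 5 of them higher and 7 lower with p under 0.05, and 20 were below 0. The mTORC1 activator Rheb differed by 0.34 (adjusted p = 0.055), its inhibitor Tsc1 by -0.20 (adjusted p = 0.067) and the scaffold gene Lamtor3 by 0.20 (adjusted p = 0.10).

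Among 17 other measured amino acid and peptide transporters 0 passed (limma; 3 higher and 1 lower with p under 0.05 before adjustment), with a median of 0.07. The peptide transporter Slc15a2 had 5.99, 5.46, 6.73 and 6.49 in the pregnant and 7.03, 6.90, 6.86 and 7.30 in the pseudopregnant uteri. All pregnant values lay below all pseudopregnant ones, and the difference was -0.86 ± 0.24 (SE, adjusted p = 0.075). Slc25a13, the mitochondrial aspartate and glutamate carrier, had pregnant values of 6.49 to 6.63, all above the pseudopregnant ones of 5.96 to 6.36, with a difference of 0.32 ± 0.085 (adjusted p = 0.069). Sfxn1, which brings serine into the mitochondrion, differed by 0.24 (adjusted p = 0.089) and the lysosomal carrier Slc17a5 by 0.29 (adjusted p = 0.12).

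Of 16 measured genes of cystine and glutathione use 0 passed (limma; 0 with p under 0.05 before adjustment), and the smallest p was that of Cth, which makes cysteine (-0.16, adjusted p = 0.45; -0.028 without pregnant replicate 2 and -0.26 without pregnant replicate 4), followed by Txnrd1 (0.08), Gsr (-0.09) and Ggt7 (0.07). Of 22 measured enzymes of glutamine, branched-chain amino acid, arginine and creatine use 0 passed (limma; 6 higher and 4 lower with p under 0.05 before adjustment). There, Bckdha of branched-chain amino acid breakdown differed by -0.26 (adjusted p = 0.053), the polyamine enzyme Odc1 by 0.38 (adjusted p = 0.064) and the aminotransferase Got2 by 0.19 (adjusted p = 0.080). Of 4 measured tryptophan and serotonin genes 0 passed (limma; 0 with p under 0.05 before adjustment), namely Afmid (0.15), Maob (-0.22, and 0.0069 without pregnant replicate 2), Ido2 (-0.11) and Maoa (0.0017, with -0.077 to 0.13 without single arrays). Tdo2 of that list, which breaks down tryptophan, was above the line on 3 arrays and so was not tested; it is named after its values were seen. It had 5.23, 8.87, 5.88 and 5.42 in the pregnant and 4.02, 3.99, 4.15 and 4.51 in the pseudopregnant uteri. All pregnant values lay above all pseudopregnant ones, and pregnant replicate 2 stood far above the rest. Of 12 measured regulators of transporters 1 rose, the kinase Sgk3 (0.26 ± 0.056, SE, adjusted p = 0.049), while the transcription factors Hif1a, Tfe3 and Esr1 differed by 0.12, 0.096 and -0.07 and did not pass. Before adjustment 1 of the 12 was higher and 0 lower (limma p under 0.05).

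The calls in these lists rested on the full set of arrays. The lists had 0 calls in each fit that left out a single one of pregnant replicates 1, 2 and 4 and pseudopregnant replicates 1, 2 and 3. Without pregnant replicate 3 the lists had 4 calls, Shmt2, Psat1, Yars and Mars1, and without pseudopregnant replicate 4 they had 2, Sesn2 and Slc17a5. The differences themselves kept their direction without each single array for all 8 genes, with 0.34 to 0.42 for Yars and 0.31 to 0.41 for Shmt2.

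**Figure D5:**
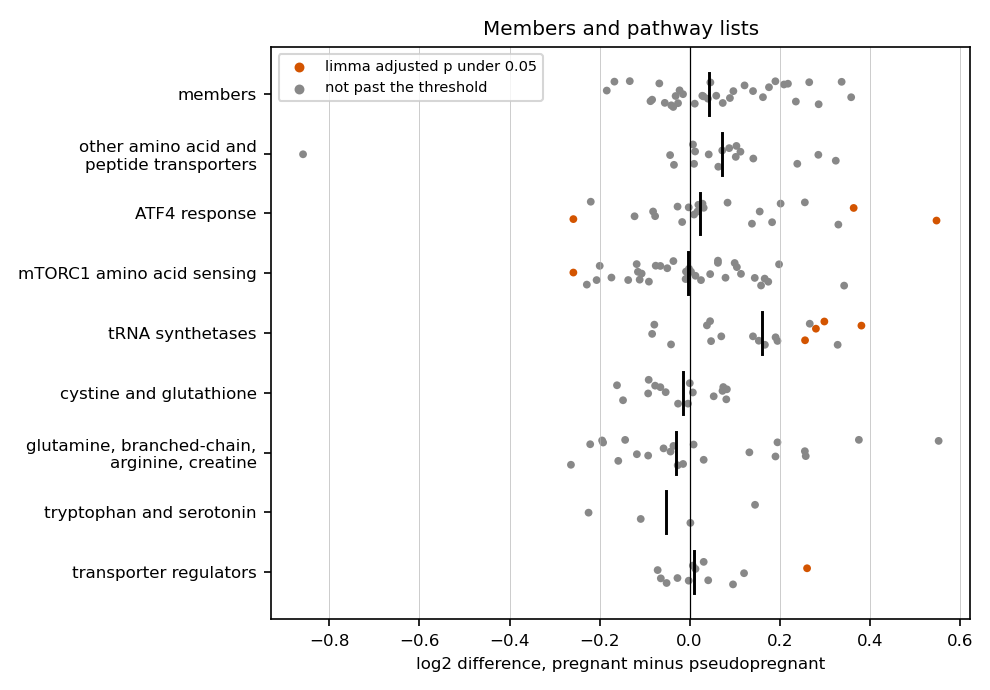
Log2 differences, pregnant minus pseudopregnant, of the 34 measured transporter members and of the measured genes of 8 lists (1 point a gene, with vertical scatter for legibility; vertical bars are medians). Coloured points passed a limma adjusted p of 0.05: 0 among the members, 4 tRNA synthetases, 3 genes of the ATF4 response, 1 of mTORC1 sensing (Sesn2, which stands in both lists) and 1 regulator.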

How the data were processed

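The data are 8 arrays of total RNA from mouse uterus, 4 a group. Per the submitters' processing notes, the authors made the deposited intensity of each probe set with RMA, whose values here are linear. Version, settings and array annotation were not given in the sources used here. The method quantile-normalizes arrays and compresses changes near background. Arrays of a group correlated at 0.988 to 0.992 over all probe sets, and array medians were 52.9 to 54.2. RNA integrity numbers were 6.9 to 8.7, per the series' design text. No batch is named.

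Log2 was taken. The 6612 lowest-numbered probe sets, which name no gene, were left out as likely controls. Of the 28944 others, 21789 had 1 gene symbol, 1621 several and 5534 none. The filter required 4 of 8 arrays above their own 40th percentile (17494 probe sets passed). The probe set with the highest mean stood for a gene. All 60 members matched the RefSeq gene table by gene number. limma 3.58.1 (lmFit, eBayes; R 4.3.3) tested the group term two-sided, Benjamini-Hochberg adjusted over all tested probe sets; the code was tested on simulated data. Figures used matplotlib 3.10.9 in Python 3.11.15. The number of arrays limits the precision.

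The members and lists were chosen with earlier results of these data known. The rule for named genes took members past the threshold, the 12 with the smallest p, the extremes of each family, a core list of members, up to 4 genes of each pathway list and up to 2 of each marker list with the smallest p. Other members are named to account for all measured ones or as examples below the line, and Slc6a20a, Slc6a20b, Tdo2, Cdx2, Pou5f1 and Nanog also lie outside the rule. The alternatives were centring, repeated quantile normalization, cyclic loess, 3 other filters, controls kept, averaged probe sets, array weights, trended moderation, the replicate number as a block and each array left out.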

Additional observations from a re-analysis of the deposited data

Results flagged for a closer look

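Values far from the other 3 arrays of their group were found in 10 of 178 groups of 4 examined over the named genes, and in 2 of 68 among the transporters; chance flags about 1 in 20 groups. Slc6a6 stood at 9.10 in pseudopregnant replicate 3, against 8.91 to 8.93 on the other pseudopregnant arrays. Slc1a3 stood at 6.22 in pseudopregnant replicate 3, against 6.02 to 6.05.

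Among the genes of the lists, Slc25a13 (6.63 against 6.49 to 6.51) and Pcna (9.40 against 9.73 to 9.78) stood apart in pregnant replicate 3. Aldh18a1 (8.58 against 8.51 to 8.53) and Wfdc3 (5.70 against 5.60) did so in pregnant replicate 1, and Maob (9.29 against 10.14 to 10.29) in pregnant replicate 2. Sesn2 (6.14 against 6.23 to 6.24) and Gzmb (6.51 against 5.83 to 5.87) stood apart in pseudopregnant replicate 4, and Sgk3 (7.63 against 7.68 to 7.69) in pseudopregnant replicate 1.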

How the results depend on the processing

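Under all 19 alternatives, 0 of the measured transporter genes passed in either direction. The replicate number as a block left the members' count at 0, the calls over all probe sets at 140 higher and 34 lower and those in the pathway lists at 1. Deviations of same-numbered arrays correlated at 0.24, 0.016, -0.10 and 0.044. Arrays numbered 1 and 4 correlated best with their own number, and those numbered 2 and 3 did not. The labels do not say whether the numbers mark a pairing, and these correlations cannot decide it. With all arrays 247 probe sets were higher and 72 lower. Without the filter they were 42 and 12, with controls kept 51 and 19, and with trended moderation 523 and 185; the lower calls were 109 with cyclic loess and 120 with array weights. Without single arrays the higher calls ran from 27 to 170 and the lower from 12 to 82. The calls in the pathway lists, 8, became 5 with centring, 0 without the filter or with controls kept, 13 with the 60th percentile, 16 with trended moderation and 0 to 4 without single arrays. With the 60th percentile fewer genes were tested, and the median difference of the members became 0.074, that of SLC6 0.22 (also with all 8 arrays above the line) and that of SLC7 0.20; with array weights that of SLC38 became -0.041. Without single arrays the medians ran from 0.027 to 0.069 over all members, -0.046 to 0.054 in SLC6, 0.0073 to 0.12 in SLC1, 0.030 to 0.13 in SLC3, 0.089 to 0.17 in SLC7, -0.012 to 0.060 in SLC36, -0.037 to 0.057 in SLC38 and 0.024 to 0.072 in SLC43. For the other moved values the cause was not tested.

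Small differences changed sign. Slc38a9 became -0.019 with quantile normalization, -0.017 with cyclic loess, -0.060 with averaged probe sets and -0.041 with array weights. Slc38a1 became 0.064 with averaged probe sets, and Slc6a3 0.0034 with cyclic loess and 0.0085 with array weights. Maoa became -0.031 with quantile normalization and -0.026 with cyclic loess, Siglecf 0.0020 with centring and 0.021 with cyclic loess, and Gata3 -0.0011 with array weights. Without single arrays the ranges that crossed 0 were -0.0084 to 0.093 for Slc1a3, -0.092 to 0.055 for Slc1a4, -0.063 to 0.028 for Slc36a1, -0.095 to 0.028 for Slc38a1, -0.0091 to 0.095 for Slc38a6, -0.037 to 0.057 for Slc38a9, -0.017 to 0.072 for Slc43a2, -0.062 to 0.054 for Slc6a17, -0.087 to 0.046 for Slc6a3, -0.078 to 0.0038 for Slc7a4, -0.33 to 0.0069 for Maob, -0.077 to 0.13 for Maoa, -0.037 to 0.041 for Siglecf, -0.035 to 0.21 for Plin1, -0.26 to 0.090 for Lrrn4 and -0.023 to 0.11 for Gata3. Members near the line are limited by their low signal.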
